A study of Mus musculus with 4 samples.

Results

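The clustered histone genes make the bulk of the protein that packages newly copied DNA. They were taken from the expression table as every gene whose symbol begins with Hist1 to Hist4 followed by h1 to h4, which gave 62 genes of 36445. By family they were 6 H1 genes, 20 H2A, 16 H2B, 7 H3 and 13 H4. By cluster they were 49 Hist1 genes on chromosome 13, 9 Hist2 genes on chromosome 3, 3 Hist3 genes on chromosome 11 and 1 Hist4 gene on chromosome 6. The annotation listed 59 of them as protein-coding and 3 as pseudogenes. The libraries were made from MC38, a mouse colon cancer cell line, grown in DMEM with serum and given either PBS (0 mM drug) or 5-fluorouracil (5-FU) at 1 mM for 24 h. Each group had 2 libraries, and nothing in the labels says that they came from separate cultures, so the spread between them may be technical. 5-FU is a pyrimidine analogue that blocks thymidylate synthase and is built into RNA and DNA. The cell line has no genetic change by design, and its vehicle group is the only control.

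Histones H2A, H2B, H3 and H4 form the core that DNA wraps around, and H1 binds the linker between cores. The clustered genes are expressed mainly in S phase, when DNA is copied. Most of their messenger RNAs have no poly(A) tail. They end a few bases after a stem-loop that the stem-loop binding protein (Slbp) holds during 3′ processing, translation and decay. Some clustered genes also give longer, polyadenylated RNAs that run past the stem-loop. The libraries measured here were made by poly(A) selection, per the labels' protocols, so an RNA that ends at its stem-loop was not the kind of molecule the preparation selects.

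To show which members have the element, their annotated transcripts (GENCODE M21, GRCm38) were searched on the sense strand for a 16-base perfect hairpin. Its stem was 6 bases on each side, beginning with GG, and its loop was 4 bases, beginning with TT. The search found it in 40 of 62 members (64.5%). The 6 letter variants found in members occurred in 7 of 55388 other annotated genes (0.0126%). The most common variant, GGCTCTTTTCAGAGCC, was in 23 members, and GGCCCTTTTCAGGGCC was in 7. The members below show the variants in genes that the results turn on or that differ in their letters, with the hairpin in capitals and flanking bases in lower case.
Hist1h4i: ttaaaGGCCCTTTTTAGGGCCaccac
Hist2h4: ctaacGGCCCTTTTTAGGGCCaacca
Hist1h4d: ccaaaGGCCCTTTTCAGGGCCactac
Hist1h4b: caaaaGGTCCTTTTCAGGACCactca
Hist1h1c: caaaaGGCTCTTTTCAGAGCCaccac
Hist1h1e: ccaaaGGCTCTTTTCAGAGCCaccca
Hist1h2bk: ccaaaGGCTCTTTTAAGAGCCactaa
Hist2h2ac: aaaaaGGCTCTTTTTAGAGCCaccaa
The H4 genes Hist1h4i, Hist2h4 and Hist1h4d carried a GGCCC stem, Hist1h4b a GGTCC stem, and the H1, H2A and H2B genes shown a GGCTC stem. The members were then sorted by where their annotated transcript stops. In 21 members it stopped fewer than 100 bases after the hairpin, in 19 it ran on for at least 100 bases, and in 22 no hairpin was found. A model with no match may stop before the element or hold other letters. Bases annotated past the hairpin numbered 330 in Hist1h4i, 770 in Hist1h4d, 840 in Hist1h1c, 1153 in Hist1h1e and 1257 in Hist2h4.

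Many H2A and H2B genes lie head to head and share the DNA between them. RefSeq promoters (GRCm38.p6, from 250 bases before to 50 bases after the start) were matched for 55 members and searched on both strands for TATAAA (the TATA box), for CCAAT (the CCAAT box) and for the octamer ATTTGCAT (bound by Oct-1), whose matches may share bases. TATAAA was in 58.2% of these promoters and in 13.6% of all 32851 RefSeq promoters. CCAAT was in 83.6% against 37.4%, and by family in 25% of the H4 promoters and in 100% of those of H1, H2A, H2B and H3. The octamer was in 21.8% against 1.74%, in 7 of 18 H2A and 5 of 13 H2B promoters and in none of 6 H1, 6 H3 and 12 H4 promoters. Shown are the 250 bases before the start, 5′ to 3′ on the gene's strand with these motifs in capitals, of a pair of H4 genes that moved in opposite directions (Hist1h4i, chr13:22041363-22041612, minus strand; Hist1h4d, chr13:23581318-23581567, plus strand) and of the DNA shared by Hist1h2ac and Hist1h2bc (chr13:23683960-23684209, minus strand) and by Hist2h2ac and Hist2h2be (chr3:96220881-96221130, minus strand).
Hist1h4i: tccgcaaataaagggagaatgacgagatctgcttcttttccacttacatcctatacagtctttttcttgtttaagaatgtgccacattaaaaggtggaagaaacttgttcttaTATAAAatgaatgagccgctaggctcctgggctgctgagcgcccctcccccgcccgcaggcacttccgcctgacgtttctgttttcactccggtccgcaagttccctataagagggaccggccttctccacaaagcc
Hist1h4d: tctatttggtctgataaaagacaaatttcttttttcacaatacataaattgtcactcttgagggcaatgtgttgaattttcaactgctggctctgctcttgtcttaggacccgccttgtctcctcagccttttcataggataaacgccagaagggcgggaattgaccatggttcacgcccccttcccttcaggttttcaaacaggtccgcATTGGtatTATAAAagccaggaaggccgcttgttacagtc
Hist1h2ac: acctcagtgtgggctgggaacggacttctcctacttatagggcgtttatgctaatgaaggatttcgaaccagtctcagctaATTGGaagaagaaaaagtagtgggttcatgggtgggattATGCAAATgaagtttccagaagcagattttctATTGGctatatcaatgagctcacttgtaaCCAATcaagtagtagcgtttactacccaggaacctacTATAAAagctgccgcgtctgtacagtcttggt
Hist2h2ac: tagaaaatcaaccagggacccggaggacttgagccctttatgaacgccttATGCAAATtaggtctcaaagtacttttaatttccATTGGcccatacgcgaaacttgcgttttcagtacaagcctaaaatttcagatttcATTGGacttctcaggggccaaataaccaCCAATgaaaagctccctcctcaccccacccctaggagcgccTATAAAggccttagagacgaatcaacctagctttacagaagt
Each shared H2A and H2B stretch held all 3 motifs, and no octamer was found in either H4 window. The marked TATAAA lies near the start in Hist1h4d but near the middle of the window in Hist1h4i, so a match need not be a TATA box. A match describes the letters and is not evidence that a factor binds there.

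The data are FPKM values, which are read counts scaled to gene length and library size. From the steps between low values, the libraries held about 41300000 and 41600000 reads in PBS and about 20800000 and 20600000 in 5-FU. Clustered histone genes took about 1963, 2105, 874 and 850 of these reads, so most single members rest on few. As a guide to the limit of detection, 3 reads over a gene of 500 bases correspond to 0.145 and 0.144 FPKM in PBS and to 0.288 and 0.291 in 5-FU. Of the cell type markers checked, none of 11 epithelial genes reached the level needed for testing, and their summed level was 0.794 to 1.87 FPKM, with Epcam listed at 0 in both PBS libraries. Mesenchymal markers summed to 1292 to 1535 FPKM, with 8 of 10 tested, none higher and 2 lower. Leukocyte markers summed to 1.77 to 3.34 FPKM and endothelial and erythroid markers to 1.78 to 3.57 FPKM.

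The members' RNA was low and unevenly shared. Of 62 members, 52 were above 0 in at least 1 library and 10 were listed at 0 in all 4. In the highest library 27 exceeded 0.5 FPKM, 11 exceeded 1 FPKM and 2 exceeded 5 FPKM, and the mean over 4 libraries was under 1 FPKM in 55. At most 10 reads over 4 libraries stood behind 29 members. Sequence copies limit the values further: under 50% of the 50-base words of 30 members were unique to them in the annotation. Of the 10 members listed at 0, 7 had under 25% unique words, against 11 of the other 52, so a value of 0 for such a gene does not show that it was silent. No source used here states how reads matching several genes were counted.

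In PBS, 5 members held most of the family's reads. Chosen by their reads in PBS, they were Hist1h4i, Hist1h2bc, Hist2h2be, Hist1h1c and Hist3h2a, an H4, 2 H2B, an H1 and an H2A gene, and together they had 89.6% and 90.4% of member reads in PBS and 50.1% and 51.1% in 5-FU. Hist1h4i alone had 56.9% and 35.3% in PBS and 27% and 25.1% in 5-FU. The summed level of all members was 52.6 and 47.8 FPKM in PBS and 46.1 and 43.9 FPKM in 5-FU, with means of 50.2 ± 3.34 and 45.0 ± 1.59 (SD, n = 2). Hist1h4i was the most-read member in each group, and Hist1h2bc came next. In 5-FU the next after these were Hist1h1e (155 reads) and Hist1h4d (130 reads), and Hist2h2be and Hist3h2a were not among the first 5. The sum of the remaining 57 members was 6.09 and 5.65 FPKM in PBS and 23.4 and 22.2 FPKM in 5-FU, 3.89-fold higher. A choice by reads in PBS favours such a rise, so the sum was also taken without the 5 most-read members over all 4 libraries, where Hist1h1e takes the place of Hist3h2a, and without the 5 most read in 5-FU. It was then 3.25-fold and 2.15-fold higher in 5-FU. In bulk RNA, a change in the share of cells in S phase and a change in RNA per cell cannot be told apart. These sums carry no test, since an exact test of 2 libraries against 2 cannot give a two-sided p below 0.333, and the genes left out were picked by their reads.

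**Figure D1:**
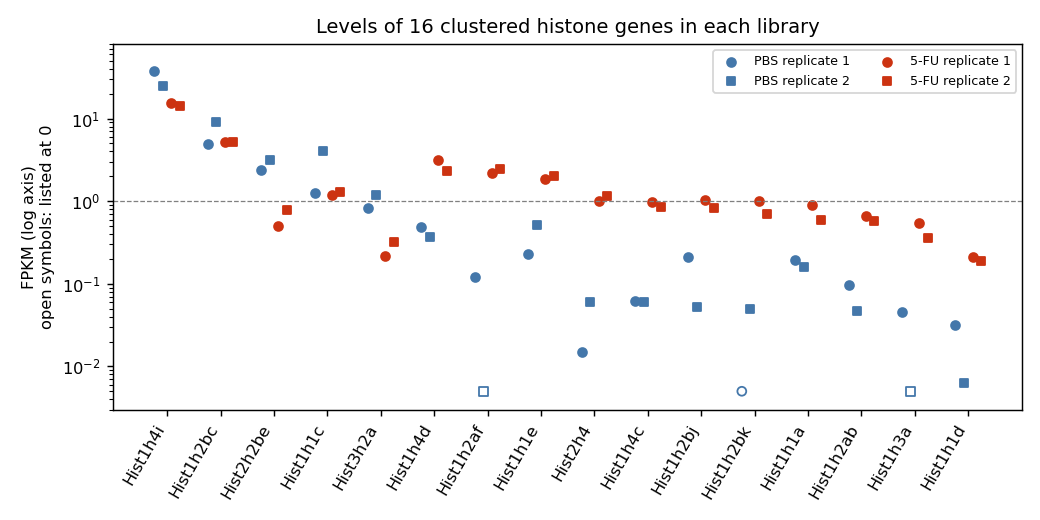
FPKM (log axis) of 16 clustered histone genes in each library, circles for replicate 1 and squares for replicate 2, blue for PBS and red for 5-FU, with open symbols for values listed at 0 and a dashed line at 1 FPKM. Hist1h4i ran from 37.2 FPKM in a PBS library to 14.2 in a 5-FU library, while Hist2h4 was at 0.0150 and 0.0598 FPKM in PBS and at 1.02 and 1.15 in 5-FU. Hist1h4c, Hist1h2bj, Hist1h2bk, Hist1h2ab and Hist1h3a were chosen after their values were seen.

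Genes were tested with limma on log2(FPKM + 1), where a gene needed at least 1 FPKM in at least 2 of 4 libraries, and p-values were adjusted over all 11644 tested genes. Differences are 5-FU minus PBS on the log2(FPKM + 1) scale, which understates the change of low genes. Only 8 members passed this filter: 4 were higher in 5-FU, where 22.1% of all tested genes were higher, 2 were lower, where 31.2% of all tested genes were lower, and 2 did not pass the threshold. All 4 higher members passed the filter through their 5-FU libraries alone and Hist2h2be through its PBS libraries alone, so they had to differ and their number supports no statement about the family.

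Hist1h4i, which encodes histone H4 (chr13:22040636-22041362, minus strand), was the most abundant member. It was at 37.2 and 24.6 FPKM in PBS and at 15.6 and 14.2 FPKM in 5-FU, from 1117, 743, 236 and 213 estimated reads. Both 5-FU libraries lay below both PBS libraries. It fell by 0.98 ± 0.22 (SE) on the log2 scale, a level 2.08-fold lower (adjusted p = 0.0211). The difference was as large without 5-FU replicate 1 (-1.04) or 2 (-0.92), with an adjusted p of 0.114 and 0.143 in fits that called only 259 and 293 genes higher and 237 and 299 lower, and the adjusted p was 0.0731 when no filter was set on low values.

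Of the 13 H4 genes, 7 had both 5-FU libraries above both PBS libraries, 2 had both below (Hist1h4i and Hist1h4k) and 4 overlapped. Of the 23640 genes above 0 in any library, 31.2% had both above and 30.6% both below. Hist1h4d (chr13:23581598-23582735, plus strand) was at 0.492 and 0.367 FPKM in PBS and at 3.18 and 2.34 FPKM in 5-FU. Its groups did not overlap, and it rose by 1.39 ± 0.17 (adjusted p = 0.0049), with an adjusted p of 0.0501 without 5-FU replicate 1. Hist2h4 (chr3:96261682-96263311, minus strand) was at 0.0150 and 0.0598 FPKM in PBS and at 1.02 and 1.15 FPKM in 5-FU, from 1, 4, 34 and 39 reads. Its mean level was 28.9-fold higher in 5-FU, with a 95% interval of 12.0 to 92.7 that covers counting error only, and it rose by 1.00 ± 0.12 (adjusted p = 0.00491). Hist2h4 was near the limit of detection in PBS and clearly present in 5-FU. The lone Hist4 gene, Hist4h4 (chr6:136801553-136804415, minus strand), had a value of 0 in PBS replicates 1 and 2 and was at 0.0834 and 0.0674 FPKM in 5-FU, from 5 and 4 reads. The 95% counting interval of its ratio of 5-FU to PBS has a lower limit of 3.95. Its start lies 9239 bases past Wbp11, a gene on the same strand with a mean of 31.3 FPKM.

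The only H2A gene that passed the filter was Hist1h2af (chr13:23533906-23534304, plus strand). It was at 0.121 and 0 FPKM in PBS and at 2.17 and 2.43 FPKM in 5-FU, from 2, 0, 18 and 20 reads. It had the largest rise among the 8 tested members, 1.64 ± 0.14 (adjusted p = 0.00296), and the call held with each library left out. Only 20.3% of its 50-base words were unique and 24 other genes share some of them, so which H2A gene the reads came from is uncertain. Hist3h2a (chr11:58954685-58956830, plus strand), another H2A gene, went the other way, at 0.827 and 1.20 FPKM in PBS and at 0.217 and 0.317 in 5-FU. It did not pass the filter, and its model overlaps that of Trim17 on the same strand.

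Among H2B genes, Hist2h2be (chr3:96221119-96223738, plus strand) was at 2.36 and 3.19 FPKM in PBS and at 0.495 and 0.778 FPKM in 5-FU. The groups did not overlap, every 50-base word of the gene was unique (100%), and it fell by 1.20 ± 0.18, a level 4.36-fold lower (adjusted p = 0.00744). Leaving out 5-FU replicate 1 or 2 gave an adjusted p of 0.0819 and 0.0633. Hist1h2bc (chr13:23684199-23692908, plus strand) was at 4.86 and 9.21 FPKM in PBS and at 5.22 and 5.14 FPKM in 5-FU. Its 5-FU libraries lay between its PBS libraries, with a difference of -0.32 ± 0.29 (adjusted p = 0.385). The PBS libraries decide this value: the difference was -0.72 (adjusted p = 0.000421) without PBS replicate 1 and 0.08 (adjusted p = 0.459) without PBS replicate 2. In such fits 1 PBS library is assumed to vary like the 5-FU pair, which alone gives the spread.

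The 6 H1 genes encode linker histones, and in 4 of them both 5-FU libraries lay above both PBS libraries, where 31.2% of all genes above 0 did. Hist1h1e (chr13:23620629-23622558, minus strand) was at 0.226 and 0.514 FPKM in PBS and at 1.86 and 2.01 FPKM in 5-FU. It rose by 1.11 ± 0.16, a level 5.23-fold higher (adjusted p = 0.00653, and 0.0586 and 0.0627 without 5-FU replicate 1 or 2). Its model overlaps Hist1h2be and Gm11398 on the same strand, so their reads cannot be fully told apart. Hist1h1c (chr13:23738808-23740367, plus strand) was at 1.27 and 4.04 FPKM in PBS and at 1.20 and 1.31 FPKM in 5-FU. Its 5-FU libraries overlapped the lower PBS library, with a difference of -0.59 ± 0.40 (adjusted p = 0.266), and the PBS libraries again decide it, with -1.16 (adjusted p = 0.000167) without PBS replicate 1 and -0.01 (adjusted p = 0.925) without PBS replicate 2. The remaining H1 genes were under the filter. Hist1h1a was at 0.194 and 0.161 FPKM in PBS and at 0.900 and 0.584 in 5-FU, and Hist1h1b at 0.163 and 0.291 in PBS and at 0.517 and 0.653 in 5-FU. Hist1h1d was at 0.0317 and 0.00629 FPKM in PBS and at 0.214 and 0.190 FPKM in 5-FU. In these 3 genes both 5-FU libraries lay above both PBS libraries, while Hist1h1t, the testis-type H1, was listed at 0 in all 4.

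Since a filter on level keeps out most of the family, limma was also fitted with no such filter, to the 23640 genes above 0 in any library. Here 52 members were tested, of which 17 were higher in 5-FU (32.7%; 10.0% of all genes), 1 was lower (1.92%; 12.0% of all genes) and 34 did not pass. With unadjusted limma p-values under 0.05 there were 24 members higher and 3 lower, where 4457 and 4677 of the 23640 genes were. To compare at like levels, of the 45 members with a mean under 1 FPKM 14 were higher (31.1%) and 0 lower, where 7.35% of the 12313 genes of that level were higher and 3.46% lower. The median difference was 0.21 over these 45 members and 0.01 over those genes. These counts depend on the libraries: with either PBS library left out fewer members were higher, while more of all genes were. Without 5-FU replicate 1 or 2, limma called no member and no gene at all. With a block for the replicate number limma also called 0 genes. There 23 members were higher and 3 lower at an unadjusted p under 0.05, where 3809 and 4120 of the 23640 genes were.

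The order of the libraries needs no fit. In 29 of the 52 members both 5-FU libraries lay above both PBS libraries (55.8%), where 31.2% of all genes did. In 4 members, Hist1h4i, Hist1h4k, Hist2h2be and Hist3h2a, both lay below (7.69%), where 30.6% of all genes did, and the other 19 overlapped. Among members with a mean under 1 FPKM the shares were 57.8% above and 4.44% below, where 27.3% and 17.1% of genes of that level did.

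The members higher in the fit with no filter, where 10.0% of all genes were, were 2 of 5 H1 genes (Hist1h1d and Hist1h1e), 3 of 15 H2A genes, 6 of 14 H2B genes, 1 of 5 H3 genes and 5 of 13 H4 genes, so that H1 and H3 rest on very few genes. Hist2h2be was the only lower one. Median differences were 0.37 for H1, 0.15 for H2A, 0.32 for H2B, 0.14 for H3 and 0.12 for H4, and single genes ran from -1.20 to 1.64. In H3, where no gene passed the filter, the summed level was 0.870 and 0.646 FPKM in PBS and 1.65 and 1.74 FPKM in 5-FU, 2.24-fold higher. The H2A sum was 2.49 and 2.26 FPKM in PBS and 5.88 and 6.06 in 5-FU, 2.52-fold higher. Most of this rise was in Hist1h2af, at 0.121 and 0 FPKM in PBS and at 2.17 and 2.43 in 5-FU, whose reads are of uncertain source. The H4 sum, led by Hist1h4i, was 39.0 and 26.4 FPKM in PBS and 22.7 and 20.5 in 5-FU, 1.52-fold lower. Hist1h4i alone was at 37.2 and 24.6 FPKM in PBS and at 15.6 and 14.2 in 5-FU. Without it the H4 sum was higher in 5-FU than in PBS. H2B sums of 8.30 and 13.5 FPKM in PBS and 11.3 and 10.8 in 5-FU overlapped, as did H1 sums of 1.89 and 5.01 FPKM in PBS and 4.69 and 4.74 in 5-FU.

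**Figure D2:**
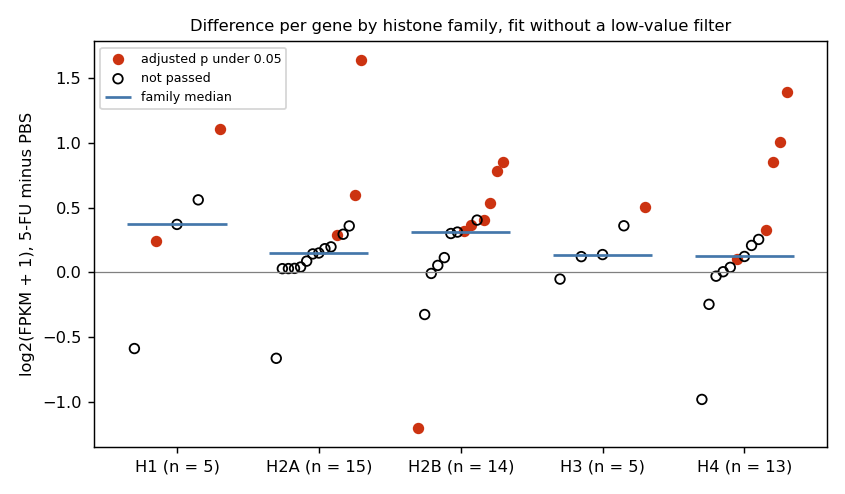
Difference of log2(FPKM + 1), 5-FU minus PBS, for each of the 52 tested members by family in the limma fit with no filter, filled red where the adjusted p was under 0.05, with a blue line at each family's median. In all 5 families the median lay above 0, from 0.12 in H4 to 0.37 in H1, and 17 filled points lay above 0 and 1 below.

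Some genes under the filter, chosen after their values were seen, show how far these levels moved. Hist1h4c, an H4 gene, was at 0.0612 and 0.0608 FPKM in PBS and at 0.973 and 0.859 in 5-FU, from 2, 2, 17 and 15 reads, 15.01-fold higher (counting interval 5.48 to 60.5; adjusted p = 0.0169). Hist1h2bk, an H2B gene, was at 0 and 0.0502 FPKM in PBS and at 1.00 and 0.709 in 5-FU, from 0, 1, 10 and 7 reads (adjusted p = 0.0245). Hist1h3a, an H3 gene, was at 0.0453 and 0 FPKM in PBS and at 0.540 and 0.363 in 5-FU, from 1, 0, 6 and 4 reads (adjusted p = 0.0339). In all 3 the 5-FU values were well above the PBS values while resting on at most 17 reads a library. Unique 50-base words made up 80.4% of Hist1h4c, 25.8% of Hist1h2bk and 50.5% of Hist1h3a, so the source of the reads is least certain for Hist1h2bk. In the same fit Hist4h4 was among the 17 higher members (adjusted p = 0.0341), and so was the pseudogene Hist3h2bb-ps, at 0.104 and 0 FPKM in PBS and at 0.310 and 0.313 in 5-FU (adjusted p = 0.0481). Hist3h2a had a difference of -0.66 (adjusted p = 0.0516), and Hist3h2ba was listed at 0 but for 1 read in 5-FU replicate 2 (0.0780 FPKM).

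The other higher members, also chosen after their values were seen, were mostly H2B genes. Hist1h2bj was at 0.209 and 0.0519 FPKM in PBS and at 1.04 and 0.838 in 5-FU, from 4, 1, 10 and 8 reads (adjusted p = 0.0302). With a pseudocount of 0.1 its adjusted p was 0.0537. Hist1h2bn was at 0.127 and 0.126 FPKM in PBS and at 0.630 and 0.636 in 5-FU (adjusted p = 0.0174), from 2, 2, 5 and 5 reads. Only 13.6% of its 50-base words were unique. Hist1h2bb went from 0.103 and 0.102 to 0.512 and 0.414 FPKM, from 2, 2, 5 and 4 reads. Hist1h2bp was called beside it, from 1, 3, 6 and 5 reads. Their libraries did not overlap between groups. Among H2A genes Hist1h2ab was at 0.0956 and 0.0475 FPKM in PBS and at 0.664 and 0.575 in 5-FU, from 2, 1, 7 and 6 reads (adjusted p = 0.0192). Among H4 genes Hist1h4b was at 0.0493 and 0.0979 FPKM in PBS and at 0.293 and 0.395 in 5-FU (adjusted p = 0.0413). It rests on 1, 2, 2 and 3 reads. Under quantile normalization, a pseudocount of 0.1 and robust settings its call was lost (limma adjusted p = 0.0737, 0.0522 and 0.0716). In the same 3 settings that of Hist1h2bp was lost too (0.0568, 0.0508 and 0.0545). Unique words made up 40.6% of Hist1h2bj, 42.0% of Hist1h2ab, 45.4% of Hist1h4b, 55.9% of Hist1h2bp and 59.9% of Hist1h2bb. Which gene their reads came from is therefore uncertain too.

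Other members did not pass, and their few reads cannot show whether their levels were steady. Hist1h3c, the H3 gene highest in PBS, was at 0.346 and 0.305 FPKM in PBS and at 0.381 and 0.539 in 5-FU. Hist1h3b was at 0.195 and 0.194 FPKM in PBS and at 0.232 and 0.0782 in 5-FU, and Hist1h2ae, an H2A gene, at 0.618 and 0.410 in PBS and at 0.682 and 0.413 in 5-FU. The last 2 overlapped between groups. Hist1h4k, an H4 gene, was at 0.543 and 0.539 FPKM in PBS and at 0.462 and 0.155 in 5-FU, below PBS in both libraries (adjusted p = 0.311). The 10 genes listed at 0 in every library were Hist1h1t, Hist1h2aa, Hist1h2ao, Hist1h2ap, Hist1h2ba, Hist1h2br, Hist2h2aa1, Hist2h2aa2, Hist2h3b and Hist2h3c1. Hist1h2aa and Hist1h2ba are the testis-type H2A and H2B genes.

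Levels were then set beside the annotated 3′ ends. The 21 members whose models end at the stem-loop summed to 1.77 and 1.57 FPKM in PBS and to 6.88 and 5.70 FPKM in 5-FU, with means of 1.67 ± 0.14 and 6.29 ± 0.84 (SD, n = 2), 3.77-fold higher. No gene of this class passed the filter, 8 of its 17 tested members were higher with no filter and 0 lower (10.0% and 12.0% of all genes), and both 5-FU libraries lay above both PBS libraries in 11 and below in 0 (31.2% and 30.6% of all genes). The 19 members whose models run past the stem-loop summed to 41.6 and 32.3 FPKM in PBS and to 26.75 and 24.96 in 5-FU. This was 1.43-fold lower, with Hist1h4i as the main part. Hist1h4i alone went from 37.2 and 24.6 FPKM to 15.6 and 14.2. Without it the class summed higher in 5-FU than in PBS, so this gene sets the fall. Of the 19, 6 of 17 tested were higher with no filter and 0 lower. Both 5-FU libraries lay above both PBS libraries in 9 of the 19 and below in 2. The 22 with no stem-loop found summed to 9.20 and 14.0 FPKM in PBS and to 12.5 and 13.2 in 5-FU, which overlap. Of these, 3 of 18 tested were higher and 1 lower. Among the 22, both 5-FU libraries lay above both PBS libraries in 9 and below in 2. The members that reached 1 FPKM in PBS were all of the last 2 classes. The classes were formed with the members' levels known, and the difference between them was not tested.

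**Figure D3:**
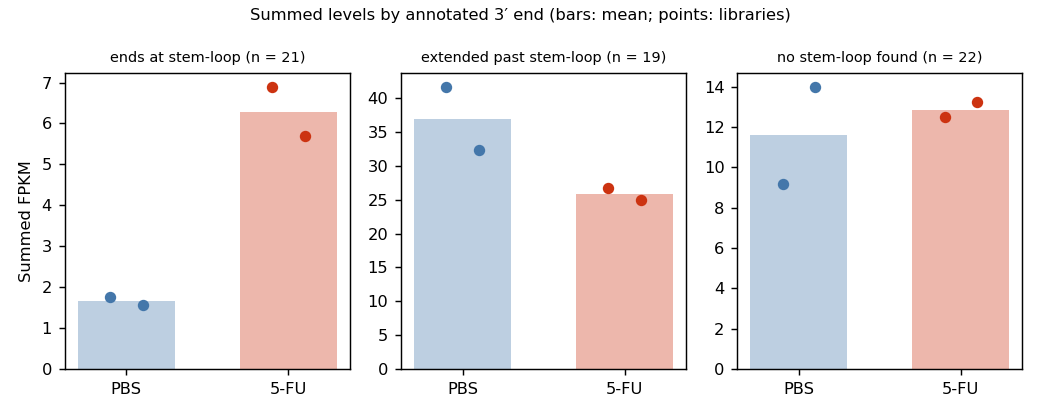
Summed FPKM of the clustered histone genes in each library (points) with group means (bars, n = 2), in panels by annotated 3′ end, each with its own axis from 0. The class that ends at the stem-loop went from 1.77 and 1.57 FPKM in PBS to 6.88 and 5.70 in 5-FU. The class that runs past it went from 41.6 and 32.3 to 26.75 and 24.96. Hist1h4i sets that fall, and without it this class summed higher in 5-FU.

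Some other RNAs that carry no or only a short poly(A) tail moved in the same libraries. The mitochondrial ribosomal RNA mt-Rnr1 was at 797 and 999 FPKM in PBS and at 2698 and 2655 in 5-FU, and mt-Rnr2 was at 180 and 204 FPKM in PBS and at 2247 and 2309 in 5-FU. Of 6 such RNAs, a list added after the data were seen, 4 were tested, of which 3 were higher (with Rn7sk, which binds the elongation factor P-TEFb) and none lower. The other tested RNA, Rpph1, was at 9.78 and 2.56 FPKM in PBS and at 2.56 and 3.19 in 5-FU (-0.68, limma adjusted p = 0.336). Under the filter, Terc had means of 0.543 FPKM in PBS and 0.342 in 5-FU, and Rmrp of 0.488 and 0.893. Of 1365 small nuclear RNA genes 1007 were listed at 0 in all 4 libraries and 62 were tested. Of these 62, 36 were higher and 6 lower, where 22.1% and 31.2% of all tested genes were, with a median difference of 1.07. A scarce gene can pass the filter through its 5-FU libraries alone and then has to differ. How many did so was not counted, so no excess can be read from these numbers. The part of these changes in the histone result was not tested.

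**Figure D4:**
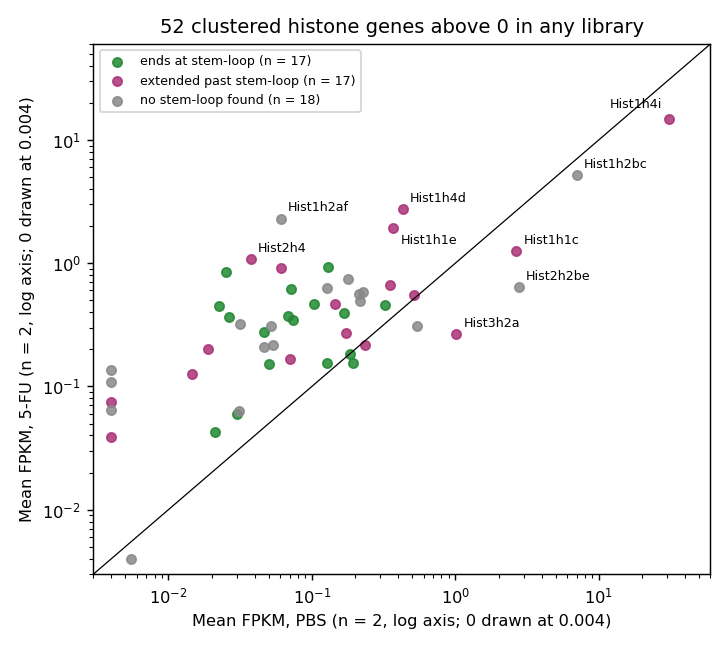
Mean FPKM in 5-FU against mean FPKM in PBS (n = 2 each, log axes, values of 0 drawn at 0.004) for the 52 members above 0 in any library, coloured by annotated 3′ end, with the line of equal levels. The 5 most-read members in PBS lie below the line at the right, Hist1h1e and Hist1h4d lie above it, and most scarce members lie above it, the green points of the class that ends at the stem-loop included.

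Of 13 head-to-head pairs, 3 had both partners with both 5-FU libraries above both PBS libraries, and 2 had a partner above and a partner below. In the other 8 at least 1 partner overlapped or was listed at 0 in all libraries. Pairs of other genes were not counted, so these numbers have no share to be read against. Hist1h2ac and Hist1h2bc had 250 bases between their starts. Hist1h2ac was at 0.0195 and 0.00968 FPKM in PBS and at 0.0774 and 0.176 in 5-FU, against 4.86, 9.21, 5.22 and 5.14 for Hist1h2bc in the same order. Neither passed (adjusted p = 0.139 with no filter and 0.385). Hist2h2ac and Hist2h2be had 238 bases between them, and Hist2h2ac was at 0 and 0.0924 FPKM in PBS and at 0.277 and 0.280 in 5-FU (adjusted p = 0.0473 with no filter), while Hist2h2be fell. Hist3h2bb-ps and Hist3h2a, with 172 bases between them, had the values given above, and Hist3h2a did not pass. Of these 3 pairs only Hist2h2ac and Hist2h2be had both partners called. The values of Hist2h2ac rest on 0, 2, 3 and 3 reads. Its call was lost under quantile normalization, a pseudocount of 0.1 and robust settings (limma adjusted p = 0.109, 0.091 and 0.0719 with no filter). Hist1h2an and Hist1h2bp, with 242 bases between them, both had their 5-FU libraries above their PBS libraries, at 0.308 and 0.122 against 0.611 and 0.370 FPKM and at 0.0343 and 0.102 against 0.408 and 0.343 FPKM.

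The histone variants encoded outside the clusters, most of which are made through the cell cycle from polyadenylated RNAs, included far more abundant genes and the largest falls around this family. H1f0, a linker histone of resting and differentiated cells, was at 254 and 353 FPKM in PBS and at 30.6 and 26.5 in 5-FU, and fell by 3.35 ± 0.20 (adjusted p = 0.0027). H2afx, the variant phosphorylated at DNA breaks, was at 22.7 and 29.7 FPKM in PBS and at 1.95 and 1.82 in 5-FU, and fell by 3.23 ± 0.17 (adjusted p = 0.0027). Both calls held under each alternative. Cenpa, the centromeric H3, fell by 0.64, and H3f3b, which encodes H3.3, fell by 0.46 (adjusted p = 0.0209). H3f3b was no longer called under median-ratio scaling (adjusted p = 0.0538). Of 10 tested variants 4 were lower and 1, H2afj (0.61, adjusted p = 0.0489), was higher, where 31.2% and 22.1% of all tested genes were. The H2afj call was lost in 7 of 13 alternatives, with no filter among them (adjusted p = 0.122). H2afz had a difference of 0.12 (adjusted p = 0.443) and H3f3a of 0.30 (adjusted p = 0.0602).

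Of 17 tested genes that make and process histone mRNA, 3 were higher and 5 lower, shares near those over all tested genes (22.1% higher and 31.2% lower), with a median difference of 0.09. Lsm10 and Lsm11, the Sm-like proteins of the U7 particle that cuts histone pre-mRNA after the stem-loop, were at 12.7 and 16.2 against 2.65 and 2.88 FPKM and at 3.91 and 4.72 against 0.460 and 0.554 FPKM. They fell by 2.03 ± 0.17 and 1.81 ± 0.15 (adjusted p = 0.00287 for each, and 0.0508 and 0.0504 without 5-FU replicate 1). The scaffold Sympk of the cleavage complex fell by 0.68. Higher were Cstf3, a cleavage stimulation subunit (1.49), Coil, the Cajal body protein coilin (1.44), and Ssrp1, a subunit of the FACT chaperone (0.63, and 0.30 with an adjusted p of 0.107 under quantile normalization). Slbp was at 25.6 and 15.6 FPKM in PBS and at 28.5 and 29.7 in 5-FU, above both PBS libraries, with a difference of 0.52 ± 0.25 that did not pass (adjusted p = 0.139). Leaving out PBS replicate 1 gave 0.86 and leaving out replicate 2 gave 0.18, in fits whose spread comes from the close 5-FU pair alone. Npat, the coactivator of histone gene transcription, had a difference of -0.31 (adjusted p = 0.106), and Casp8ap2 one of 0.45 (adjusted p = 0.07).

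The next 3 lists are read against the same 22.1% higher and 31.2% lower over all tested genes. Of 8 tested genes of histone mRNA decay 2 were higher, Exosc10 (0.75) and Dcp2 (0.53), and 2 lower, the deadenylase subunit Pan2 (-0.75) and Eri1 (-0.35), the exonuclease that trims the histone stem-loop end. The calls of Dcp2 and Pan2 were lost with no filter (adjusted p = 0.0705 and 0.0715) and under quantile normalization, and that of Eri1 under median-ratio scaling (-0.23, adjusted p = 0.128) and with a replicate block (0.107). Of 18 histone chaperone genes 3 were higher and 4 lower, no more than among all genes. Daxx, which deposits H3.3 with Atrx, rose by 1.56, Asf1a by 1.13 and Rbbp4 by 0.60, while Hjurp, the chaperone of Cenpa, fell by 0.81, Supt6 by 0.66 and Atrx by 0.62. With no filter Rbbp4 and Supt6 were no longer called (adjusted p = 0.0501 and 0.0834). Nasp had a difference of 0.10 (adjusted p = 0.759) whose sign turned when PBS replicate 2 was left out (-0.24, adjusted p = 0.0142). Of 35 genes of DNA replication and S phase 12 were higher and 4 lower, with a median of 0.37. The largest rises were in Rpa2 (1.41), Fen1 (1.30) and Ccne2 (1.05), and the largest falls in E2f1 (-1.20), Gins2 (-1.14) and Pole (-0.98). Ccne2 and Pole were no longer called with no filter (adjusted p = 0.082 and 0.104). Pcna, the replication clamp, was at 194 and 151 FPKM in PBS and at 229 and 235 in 5-FU (0.43, adjusted p = 0.0691).

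**Figure D5:**
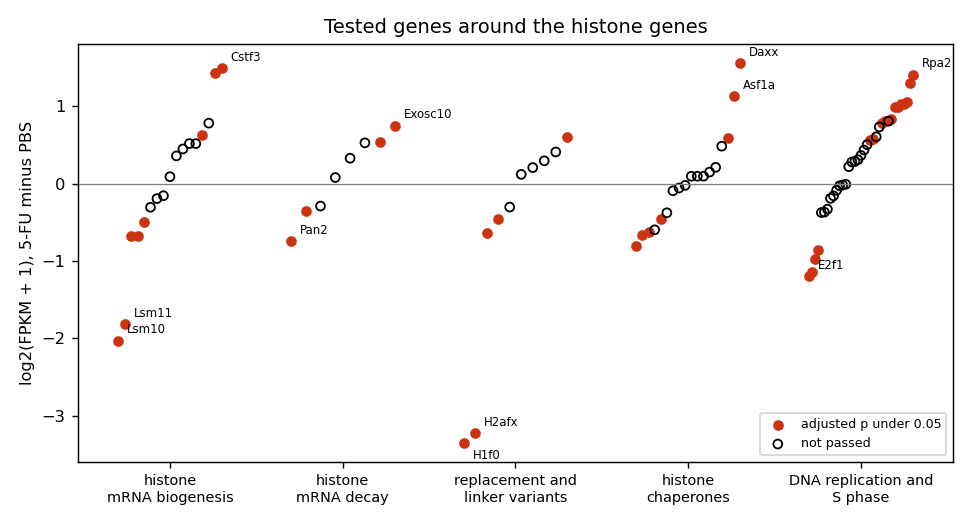
Difference of log2(FPKM + 1), 5-FU minus PBS, for the tested genes of 5 lists (histone mRNA biogenesis 17, decay 8, variants 10, chaperones 18, replication and S phase 35), filled red where the adjusted p was under 0.05. H1f0 and H2afx lie lowest, at -3.35 and -3.23, Lsm10 and Lsm11 come next at -2.03 and -1.81, and each list holds genes above and below 0.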

How the data were processed

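Poly(A)-selected RNA of MC38 cells was sequenced in 2 PBS and 2 5-FU libraries. The authors deposited FPKM values for 36445 genes. STAR 2.4.1a, Picard 2.9.0 and build GRCm38 appear in the submitters' processing notes, and nothing used here states the counting program, annotation, strand setting or treatment of multiply matching reads. Of the genes, 36295 matched GENCODE M21, which gave coordinates and exonic lengths. Differences were tested with limma 3.58.1 (R 4.3.3, empirical Bayes with trend) on log2(FPKM + 1), two-sided, after a filter that required 1 FPKM or more in 2 or more of the 4 libraries, Benjamini-Hochberg adjusted over all tested genes, with a threshold of 0.05. The fit was tested on simulated data. Reads were estimated as FPKM times exonic length over the step of 1 read; 54.6% to 61.5% of members' values came out within 0.02 of a whole read, so reads are approximate, intervals are 95% exact binomial and cover counting error only, and no count test was run. Low FPKM of short genes depends most on the lengths, which may not be those the authors used. The 13 alternative settings changed the pseudocount, filter, scaling, variance model, replicate block and libraries. Fits around the unfiltered one were added after the data were seen.

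Members and gene lists were chosen with earlier results of these data known. Genes were named by a rule: in each family, among those past the filter, the 3 highest and the 3 largest changes each way past the threshold, every H1, Hist3 and Hist4 gene, up to 3 called genes each way from other lists, and 10 set genes. Others named were chosen after their values were seen. Protein sequences were not used here.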

Additional observations from a re-analysis of the deposited data

How the results depend on the processing

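Of the 8 tested members, 4 were higher and 2 lower under both other pseudocounts, both other scalings, both other variance models and the replicate block. All of these settings kept the filter on level. The 4 higher members passed it through 5-FU alone and Hist2h2be through PBS alone, so the steady counts support no statement about the family. With no filter 17 were higher and 1 lower of 52, and where the mean had to reach 5 FPKM 0 were higher (limma; 0 at an unadjusted p under 0.05) and 1 lower of 2 tested. With 1 library left out in turn, 2 to 4 members were higher and 0 to 4 lower, the 0 coming without 5-FU replicate 1 or 2 (2 at an unadjusted p under 0.05 in limma each time). Over all genes the same fits called 259 to 4385 higher and 237 to 5249 lower, and 2158 were lower where the mean had to reach 5 FPKM. In the fit with no filter, fewer members were higher with any 1 library left out, and none without 5-FU replicate 1 or 2. There the replicate block gave 0 higher and 0 lower (23 and 3 at an unadjusted p under 0.05 in limma), and quantile normalization gave 2 lower. The higher count was 12 to 18 under other scalings, pseudocount and robust settings, where 9.25% to 11.6% of all genes were higher. The numbers share no stated source: same-numbered libraries' deviations from their group means correlated at -0.0101 over 11644 genes, with only 2 pairs, so the numbers were not taken as pairs. The log2 ratio of summed FPKM, -0.16, was -0.0308 under median-ratio scaling, which moved the median of all tested genes from -0.10 to 0.01. Nasp was at 0.43 without PBS replicate 1 and reversed to -0.24 without PBS replicate 2. The cause of these changes was not tested. At most 10 reads in all stood behind 29 of 62 members, and absence cannot be read from a 0.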
